A study of Mus musculus with 4 samples.

Results

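The endocytic machinery of clear cells is described here through 8 genes, taken by name from the 16892 genes of a single-cell count table of the mouse epididymis and vas deferens. They are Dab2, Lrp2 and Cubn, which serve receptor-mediated uptake, Ap1s3 and Arf3, which serve the making of coated vesicles, Stx7, which serves endosome fusion, Dmxl1, which serves the assembly of the proton pump, and Cdc42se2, which binds the GTPase Cdc42. The study named 6 of them, all but Lrp2 and Cubn, for high expression in clear cells of these same libraries. Their height in clear cells is therefore given as a description and is not independent evidence.

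Clear cells are scattered cells of the epididymal epithelium that acidify the lumen with a vacuolar proton pump and that take up luminal proteins and debris by endocytosis. In the best-studied system of this kind, the kidney proximal tubule, the giant receptors megalin (Lrp2) and cubilin (Cubn) bind filtered proteins at the apical surface, and the adaptor Dab2 links megalin's tail to clathrin and AP-2. Endocytosed cargo then passes through endosomes that are acidified by the same kind of pump, with counter-ions supplied by the chloride-proton exchanger Clcn5, and it is sorted by further coats such as AP-1 and fused by SNARE proteins such as Stx7. Principal cells, the most numerous cells of the duct, also absorb luminal fluid and protein, and macrophages lie in and under the epithelium.

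The tissue came from 4 male FVB/NJ mice, 10 to 12 weeks old and not treated or mutated as far as the labels say. Their 8 epididymides were each cut into caput (head), corpus (body), cauda (tail) and vas deferens, the 8 pieces of a region were pooled, sperm were depleted, and each pool gave 1 library of single cells. The 4 libraries are thus 4 regions of the same animals with 1 library each, so values stand without replicates and regions were not tested against each other. They held 8880 cells in all (1433 caput, 2325 corpus, 1616 cauda and 3506 vas) with 26639701 UMIs, the molecular tags that count single transcripts. The deposited names divide the cells into 34 populations, which fall into 7 broad types, and 43 cell barcodes occurred in 2 libraries.

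Clear cells numbered 348 (73 caput, 132 corpus, 105 cauda and 38 vas) with 1461705 UMIs and a median of 4430 UMIs per cell. They comprised 216 main clear cells from every region, 78 Amylin-positive clear cells from the caput and corpus, and 54 cells named for keratin 14 (Krt14 clear cells), which were shallow at a median of 698 UMIs. The Amylin-positive population is deposited under the name Narrow and is called here by its marker. The clear cell label was checked against markers of the cell type, which were high in main and Amylin-positive clear cells when regions were summed. In the shallow Krt14 clear cells the markers rested on fewer UMIs, with 8 UMIs of Foxi1 and 2 of Atp6v1b1. Atp6v1g3, a subunit of the pump found in specialised acid-secreting cells, stood at 6968 UMIs per 1000000 UMIs of the cells (UPM) in main, 8170 in Amylin-positive and 1031 in Krt14 clear cells, and at no more than 56.7 UPM in any other broad type. Foxi1, the forkhead factor of such cells, stood at 681, 662 and 183 UPM against at most 15.5 UPM elsewhere. In the 13 Krt14 clear cells of the vas, however, Atp6v1g3 was at 0 among 9626 UMIs, which allows up to 312 UPM, against 3545 UPM in main clear cells of the vas, so the marker goes against the clear label for these cells. Krt14, a keratin of basal cells, stood at 2389 UPM (23 UMIs) there, against 2880 UPM in basal cells and 20.2 UPM in main clear cells. The other Krt14 clear cells held 1 Krt14 UMI, in the cauda, and Atp6v1g3 at 1226 UPM in caput (3 UMIs), 1386 in corpus and 1255 in cauda. These 13 cells held 1 Dab2 UMI, and the population is called by its deposited name. Without the whole Krt14 population, the ratios of clear cells to the highest other type given below were 3.77 for Dab2, 2.53 for Ap1s3, 3.27 for Stx7, 3.56 for Arf3, 3.78 for Dmxl1 and 2.05 for Cdc42se2.

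Markers of other cell types were present in the clear cells at levels that differed by population and region. The 6 macrophage markers in the table summed to 14.7, 3.03 and 68.7 UPM in main, Amylin-positive and Krt14 clear cells, against 8442 UPM in immune cells, with 3, 5 and 3 of them at 0. All 3 T cell markers were at 0 in the main and Amylin-positive populations and summed to 137 UPM in Krt14 clear cells. Principal cell markers summed to 1139 UPM in caput, 1773 in corpus, 834 in cauda and 9819 in vas clear cells, and basal markers to 48.9, 32.1, 93.3 and 367 UPM. The 6 clear cell markers, amylin included, summed to 33899, 31202, 9998 and 4786 UPM in the same order, so that in vas clear cells the principal markers summed to more than the clear ones. Stromal markers summed to 790, 300, 79.4 and 207 UPM and macrophage markers to 3.76, 12.8, 20.7 and 6.68 UPM, again from caput to vas. The part of such RNA in the values below was not tested except where a measurement is given.

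Promoter windows of 300 bases, 250 before and 50 after an annotated start, were read from RefSeq on GRCm38.p6 for 7 of the 8 members, with 10 windows in all. Those shown are the 2 starts of Dab2, the member with the largest share of its UMIs in clear cells, and the starts of Ap1s3 and its close relative Ap1s2, a pair that trade places along the duct in principal cells. All are written 5′ to 3′ on the gene's own strand. Capitals mark a match to 1 of 6 motifs searched on both strands, and no 2 matches overlapped in the windows shown. The motifs were TGTTTAC and TGTTTAT, both forms of the forkhead motif, the E-box CACGTG, the GC box GGGCGG, the CCAAT box CCAAT and the TATA box TATAAA.
Dab2, upstream start, chr15:6299539-6299838, plus strand: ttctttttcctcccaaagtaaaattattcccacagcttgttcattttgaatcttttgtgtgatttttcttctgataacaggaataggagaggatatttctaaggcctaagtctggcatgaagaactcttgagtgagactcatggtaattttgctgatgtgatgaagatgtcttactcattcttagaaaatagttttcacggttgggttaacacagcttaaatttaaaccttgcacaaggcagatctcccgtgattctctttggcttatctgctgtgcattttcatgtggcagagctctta
Dab2, inner start, chr15:6386498-6386797, plus strand: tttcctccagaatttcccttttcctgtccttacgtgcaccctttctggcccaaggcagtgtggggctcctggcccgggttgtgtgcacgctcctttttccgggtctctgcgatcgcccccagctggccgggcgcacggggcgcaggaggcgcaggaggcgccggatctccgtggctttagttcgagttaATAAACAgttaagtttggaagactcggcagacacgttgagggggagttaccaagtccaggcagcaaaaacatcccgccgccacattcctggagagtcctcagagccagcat
Ap1s3, chr1:79671923-79672222, minus strand: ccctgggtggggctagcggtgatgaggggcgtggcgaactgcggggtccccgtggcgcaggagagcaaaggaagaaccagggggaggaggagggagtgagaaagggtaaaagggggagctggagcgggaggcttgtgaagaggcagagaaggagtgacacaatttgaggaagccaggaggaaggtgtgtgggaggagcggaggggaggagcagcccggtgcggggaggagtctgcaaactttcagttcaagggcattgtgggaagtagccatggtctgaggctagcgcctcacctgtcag
Ap1s2, chrX:163908767-163909066, plus strand: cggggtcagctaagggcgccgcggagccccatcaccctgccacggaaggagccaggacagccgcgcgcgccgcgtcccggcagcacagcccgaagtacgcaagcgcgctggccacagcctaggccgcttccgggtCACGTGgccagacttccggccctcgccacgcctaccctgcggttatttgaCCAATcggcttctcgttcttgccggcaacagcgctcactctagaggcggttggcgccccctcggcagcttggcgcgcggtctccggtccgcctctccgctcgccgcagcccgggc

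The upstream Dab2 window was A- and T-rich (37.7% G and C) and held none of the 6 motifs, whereas the inner Dab2 window (59.3% G and C) held the TGTTTAT form of the forkhead motif, read on the opposite strand. That form was present in 4.6% of 32851 promoter windows of all genes, and the TGTTTAC form in 3.65%. The Ap1s3 window held no match, and the Ap1s2 window held an E-box, present in 7.15% of all windows, and a CCAAT box, present in 37.4%. Among the other members, Lrp2, Stx7, Arf3 and Cdc42se2 had GC boxes, present in 35.7% of all windows, and no member had a TATA box, present in 13.6%. A match is only a run of letters in the window, and the 3′ counts do not tell which start of Dab2 was used.

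Dab2, the endocytic adaptor (chr15:6299788-6440712, plus strand), was the member with the largest share of its UMIs in clear cells. A level in UPM is the summed UMIs of the gene divided by all UMIs of those cells and multiplied by 1000000, with an exact 95% Poisson interval that covers counting error only and not differences between animals. Clear cells stood at 1354 UPM (1295 to 1415, 1979 UMIs), endothelial cells at 364 UPM (324 to 407), immune cells at 314 UPM (270 to 363) and stromal cells at 109 UPM (101 to 118). Principal cells stood at 46.5 UPM, basal cells at 38.3 UPM and muscle cells at 5.25 UPM (2.26 to 10.3, 8 UMIs). Clear cells thus held 51.2% of the 3865 Dab2 UMIs of the whole table, in 348 of 8880 cells with 1461705 of the 26639701 UMIs of all genes. The ratio of clear to endothelial cells was 3.72 (exact conditional interval 3.30 to 4.21). It was 5.78 when the vas library was left out and 2.64 when the cauda library was left out, so its size depended on which regions were summed. In endothelial cells Dab2 was highest in the vas library, at 464 UPM against 226 to 281 UPM in the other 3, and in immune cells likewise at 410 UPM against 156 to 217 UPM.

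Across the 34 populations, main clear cells came first for Dab2 at 1508 UPM, followed by Amylin-positive clear cells at 917 UPM. Krt14 clear cells at 802 UPM (35 UMIs) and Trem2 macrophages at 789 UPM (62 UMIs) came next. Neighbours from the Amylin-positive cells to the Trem2 macrophages could not be ranked, since the interval of each ratio included 1. The step from Trem2 macrophages to other macrophages, at 372 UPM, was 2.12-fold (1.53 to 2.92), and macrophages and endothelial cells did not differ beyond counting error. T cells stood at 9.06 UPM. The highest principal populations were the caput populations principal 2, at 254 UPM, and principal 3, at 186 UPM.

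Lrp2, which encodes megalin (chr2:69424340-69586065, minus strand), was nearly absent from clear cells. They held 6 of its 880 UMIs, a level of 4.10 UPM (1.51 to 8.93), whereas principal cells held 839 UMIs, or 95.3%, at 87.7 UPM (81.9 to 93.9). Basal, stromal, muscle and endothelial cells ranged from 1.20 to 3.40 UPM, and immune cells had no UMI. The level in clear cells was 0.0468 times that in principal cells (0.0171 to 0.102) and its interval overlapped that of basal cells. Of the 6 UMIs in clear cells, 1 was in corpus, 3 in cauda and 2 in vas cells, all in the main population.

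Cubn, which encodes cubilin (chr2:13276338-13491813, minus strand), had 2 UMIs in the whole table, 1 in a basal and 1 in a muscle cell. None was found in clear cells, where a count of 0 allows up to 2.05 UPM taking 3 UMIs as the floor, nor in principal cells, where it allows up to 0.314 UPM. Amn, the partner that carries cubilin to the surface, had 1 UMI in clear cells and 16 in principal cells. Cubn could not be described further at this depth.

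**Figure D1:**
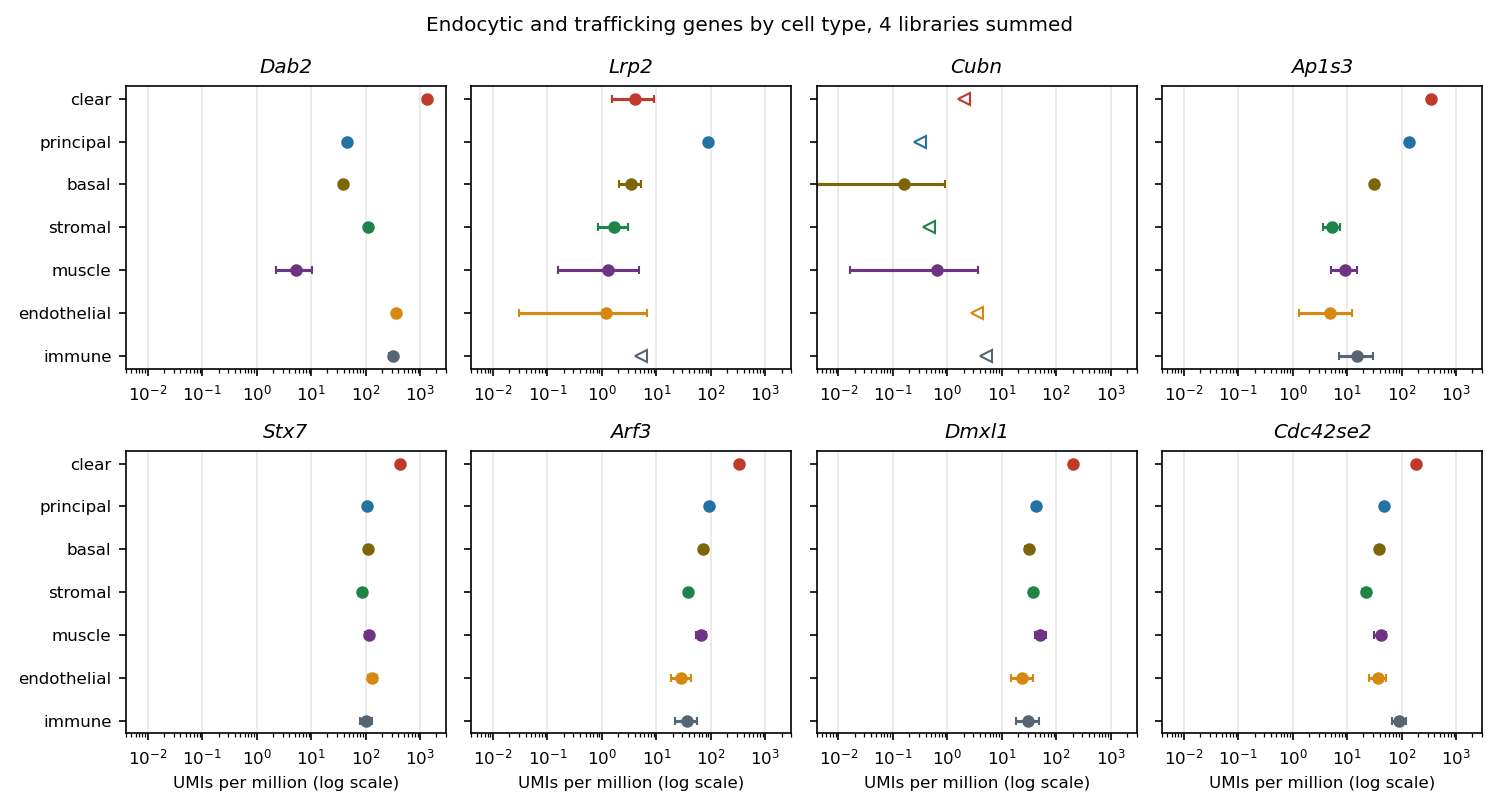
Level of each member (UPM, log axis) in the 7 broad cell types, with exact 95% Poisson intervals for counting error as bars; open triangles stand at the 3-UMI floor of types with 0 UMIs. Clear cells are highest for 6 members, with Dab2 at 1354 UPM, while Lrp2 is highest in principal cells at 87.7 UPM and Cubn has 2 UMIs in all.

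The genes of vesicle traffic were each highest in clear cells when cells were summed by broad type. Stx7, a SNARE of late and early endosomes (chr10:24149302-24190222, plus strand), stood at 429 UPM (396 to 464) in clear cells and within a narrow band of 86.9 to 133 UPM in every other type. Its ratio of clear to endothelial cells was 3.23 (2.63 to 3.99). Arf3, a small GTPase that recruits coats at the trans-Golgi network (chr15:98736634-98763214, minus strand), stood at 323 UPM (294 to 353) in clear cells and at 92.6 UPM in principal cells, the next type, a ratio of 3.49 (3.11 to 3.90). It was lowest in endothelial cells at 28.7 UPM. Among the populations, main clear cells at 349 UPM and Amylin-positive clear cells at 267 UPM came first for Arf3. Krt14 clear cells, at 91.6 UPM on 4 UMIs, could not be told from their neighbours principal 5 (92.9 UPM) and muscle cells 1 (82.6 UPM).

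Ap1s3, a small sigma subunit of the AP-1 coat (chr1:79606876-79671972, minus strand), stood at 344 UPM (315 to 376) in clear cells and 138 UPM (131 to 146) in principal cells. It was an epithelial gene in these cells, with 31.7 UPM in basal cells and 4.79 to 15.5 UPM in stromal, muscle, endothelial and immune cells. The ratio of clear to principal cells was 2.50 (2.25 to 2.77), and it was 4.30 without the vas library, whose principal cells held 925 of the 1319 principal cell UMIs. It was 1.81 without the cauda library. By population, main clear cells came first for Ap1s3 at 382 UPM. Amylin-positive clear cells, at 240 UPM, could not be told from principal 14 of the vas, at 221 UPM (ratio 1.08, 0.799 to 1.47). Krt14 clear cells, at 183 UPM on 8 UMIs, came after principal 12 and principal 13 (212 and 209 UPM) and could not be told from the latter.

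Dmxl1, a scaffold that binds the vacuolar pump, stood at 200 UPM (178 to 225) in clear cells and 51.1 UPM (40.4 to 63.8) in muscle cells, a ratio of 3.92 (3.04 to 5.10). The other types ranged from 23.9 to 42.9 UPM. By population, Dmxl1 in Amylin-positive clear cells (161 UPM) could not be told from that in principal 6 (113 UPM), at a ratio of 1.43 (0.947 to 2.15). Cdc42se2, a small effector of the actin regulator Cdc42 (chr11:54717456-54787675, minus strand), stood at 187 UPM (165 to 210) in clear cells and 91.1 UPM (68.2 to 119) in immune cells, a ratio of 2.05 (1.52 to 2.81). It had the smallest ratio of clear cells to the next type among the 6, and T cells reached 136 UPM (15 UMIs), a level that could not be told from that of Krt14 clear cells (183 UPM), its neighbour in the order.

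The rule was at least 20 UMIs in clear cells and 4 times the level of every other type. Of the 7 members that reached 20 UMIs in some type, all but Cubn, 0 were called, beside 1.48% of 12868 such genes. At 2 times every other type, 6 of the 7 were called, beside 4.69% of those genes. Because the 6 were named by the study for this pattern, nothing is read from that count. Ordered by the ratio among 7641 genes with 20 UMIs in clear cells, Dmxl1 ranked 175, Dab2 190, Arf3 212, Stx7 250, Ap1s3 381 and Cdc42se2 575.

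Single cells gave a like order when every cell was thinned to 1000 UMIs, so that depth could not set the share. Thinning kept 238 clear cells and left out 110 shallower ones. It kept 1894 principal cells, 773 of them from the vas, and left out 2062, so principal shares are those of the deeper cells. A Dab2 UMI was expected in 64.0% of thinned clear cells (Clopper-Pearson 57.4 to 70.0), in 26.6% of endothelial, 20.6% of immune and 4.20% of principal cells, and in 0.613% of muscle cells, the type with the lowest level, taken here as the background. Unthinned, the share was 69.8% of clear cells, at a median of 4430 UMIs, and 1.59% of muscle cells, at a median of 1803 UMIs.

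For the other members the thinned share of clear cells was 33.7% for Stx7, 27.8% for Ap1s3, 25.9% for Arf3, 20.9% for Dmxl1 and 15.3% for Cdc42se2. The highest share in any other type was 12.9% for Stx7 (endothelial), 12.1% for Ap1s3 (principal), 8.28% for Arf3 (principal), 6.90% for Dmxl1 (muscle) and 8.73% for Cdc42se2 (immune), and the lowest was 8.42%, 0.261%, 2.67%, 1.80% and 2.29%. Unthinned, the shares of clear cells were 59.2%, 53.2%, 52.3%, 47.1% and 39.9%. Lrp2 was expected in 0.719% of thinned clear cells (0.102 to 3.00) and 9.21% of principal cells. Counted together, a thinned clear cell held UMIs of 1.88 of the 8 members on average, against 0.277 to 0.509 in the other types, and 10.4% of clear cells held none, against 58.5% to 75.4%.

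Along the duct, the members did not follow 1 order in clear cells. Dab2 stood at 948 UPM in caput (834 to 1072), 1049 in corpus (959 to 1147), 1920 in cauda (1809 to 2037) and 834 in vas clear cells (695 to 994). Cauda clear cells stood apart from the other 3 libraries, which were close to each other. The ratio of cauda to vas was 2.30 (1.91 to 2.79) and that of cauda to corpus 1.83 (1.64 to 2.04). Within main clear cells alone the levels were 1056, 1109, 1945 and 885 UPM, so the cauda was as high without the other populations.

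Ap1s3 and Arf3 were also highest in cauda clear cells. Ap1s3 stood at 286 UPM in caput, 210 in corpus, 485 in cauda and 320 in vas clear cells, a ratio of cauda to corpus of 2.31 (1.83 to 2.94). Arf3 stood at 207, 306, 433 and 154 UPM in the same order, a ratio of cauda to vas of 2.82 (1.84 to 4.54). Stx7 went the other way, with caput and corpus alike at 534 and 533 UPM, cauda at 357 UPM and vas at 194 UPM, and a ratio of caput to vas of 2.76 (1.84 to 4.27). In main clear cells alone Stx7 stood at 488, 516, 363 and 193 UPM. The lower Stx7 in cauda than in caput was not particular to clear cells. The ratio of cauda to caput was 0.670 in clear (0.538 to 0.835), 0.484 in principal (0.369 to 0.631), 0.490 in basal (0.375 to 0.634) and 0.606 in stromal cells (0.458 to 0.802). In endothelial cells it was 1.18, with an interval that included 1.

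The remaining members with enough UMIs were close to even in these sums. Dmxl1 stood at 184, 210, 209 and 167 UPM from caput to vas, with a ratio of 1.26 (0.804 to 2.04) between the extremes, and Cdc42se2 at 180, 176, 188 and 227 UPM, with a ratio of 1.29 (0.840 to 1.95). When each cell was instead given the same weight, as the mean over cells of the level in each, these ratios were 2.52 and 2.46. The evenness thus did not hold in that mean. The expected share of thinned clear cells with a UMI was closer to even. From caput to vas it was 22.5%, 23.4%, 18.4% and 18.6% for Dmxl1 and 13.7%, 16.1%, 15.2% and 15.6% for Cdc42se2. Thinning left out the shallower cells and kept 22 clear cells in the vas. Between the highest and the lowest library, 4 of the 6 members with 20 UMIs in clear cells differed at least 2 times, beside 35.3% of 5074 genes. The cauda clear cells were the deepest, at a median of 5796 UMIs against 1581 to 2038 in the other libraries, and had the lowest sums of stromal and principal markers, while their macrophage sum, at 20.7 UPM, was the highest of the 4 libraries and their basal sum, at 93.3 UPM, was above that of caput and corpus. The vas library had the fewest clear cells and the highest sum of principal markers there. What these differences add to the regional values was not tested.

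**Figure D2:**
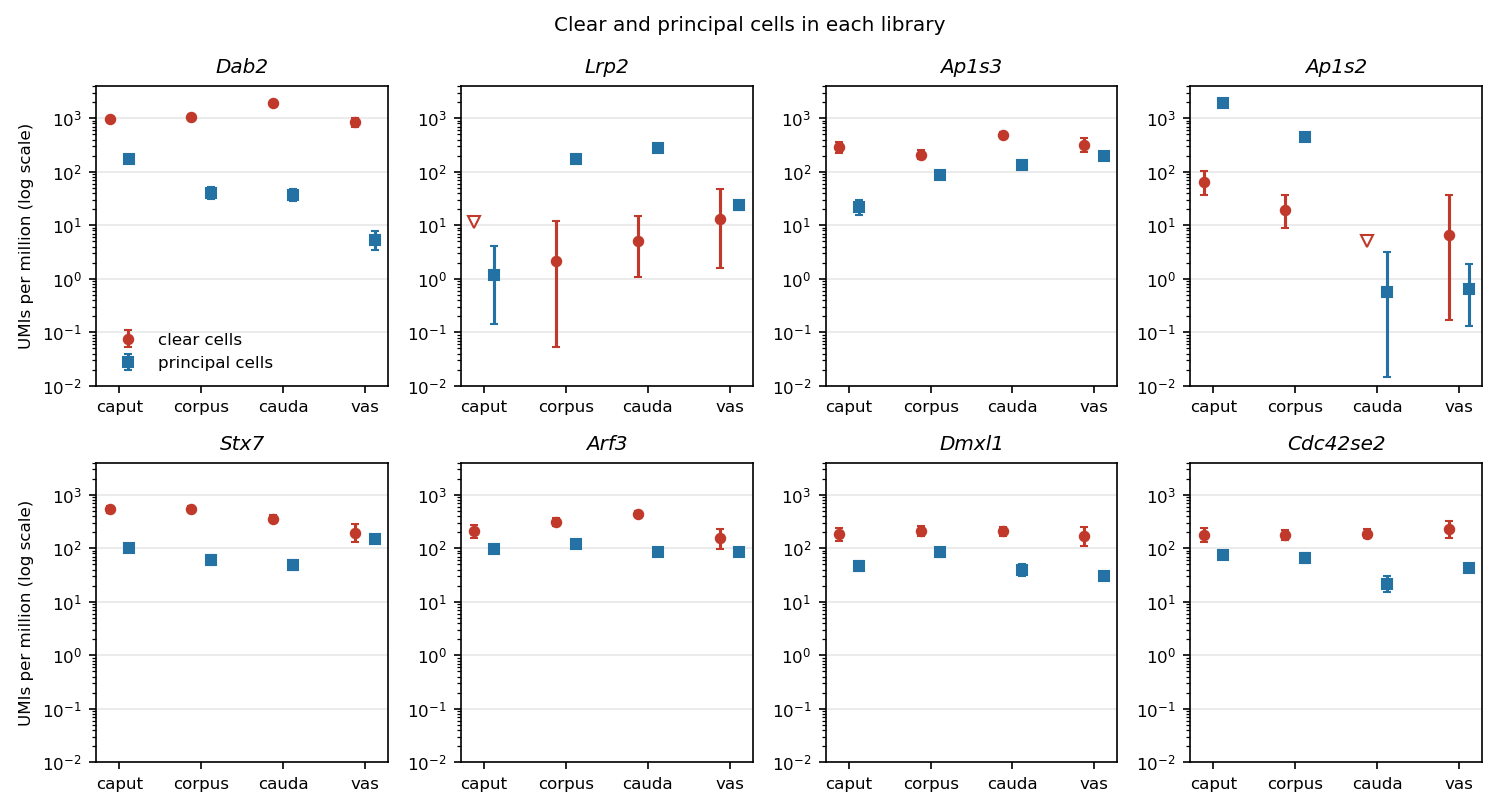
Level (UPM) of 7 members and of Ap1s2 in clear and principal cells of the 4 libraries (log axis), with exact 95% Poisson intervals for counting error as bars and open triangles at the 3-UMI floor where the count is 0. Dab2 is highest in cauda clear cells (1920 UPM) and in caput principal cells (173 UPM), and Lrp2 is highest in cauda principal cells (276 UPM).

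In principal cells Dab2 was highest in the caput and not in the cauda. It stood at 173 UPM in caput (154 to 194), 40.9 in corpus (31.0 to 52.8), 36.8 in cauda (28.3 to 47.0) and 5.34 in vas principal cells (3.46 to 7.88). The caput was 4.23 times the corpus (3.18 to 5.70) and 32.4 times the vas (21.5 to 50.9). Corpus and cauda did not differ beyond their intervals. Of the 7 members with 20 UMIs in principal cells of some library, only Dab2 reached 4 times the level of every other library in 1 of them. This stands beside 6.16% of 9854 genes.

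Lrp2 was near 0 in the caput, where principal cells had the most Dab2. Principal cells held 2 Lrp2 UMIs in the caput (1.16 UPM, 0.141 to 4.19), and stood at 173 UPM in the corpus (152 to 196), 276 in the cauda (252 to 302) and 23.5 in the vas (19.3 to 28.3). The cauda was 1.59 times the corpus (1.36 to 1.87), and the ratio of cauda to caput was 238, with an interval from 65.6 to 1973 that reflects the 2 UMIs of the caput. By population, Lrp2 was highest in principal 10 (mostly cauda) at 498 UPM and principal 6 (mostly corpus) at 446 UPM, which did not differ beyond counting error. Principal 11 at 296 UPM, principal 8 at 216 UPM and principal 7 at 106 UPM followed.

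Cells with UMIs of the receptor, its adaptor or both were counted by region. Of 736 caput principal cells, 149 had Dab2 UMIs only, 2 had Lrp2 UMIs only and 0 had both. Of 931 cauda principal cells, 27 had Dab2 only, 216 had Lrp2 only and 24 had both. Of the 348 clear cells, 242 had Dab2 only, 3 had Lrp2 only and 1 had both. No value for what depth alone would give was computed, and a median caput principal cell had 844 UMIs and a median cauda principal cell 889.

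**Figure D3:**
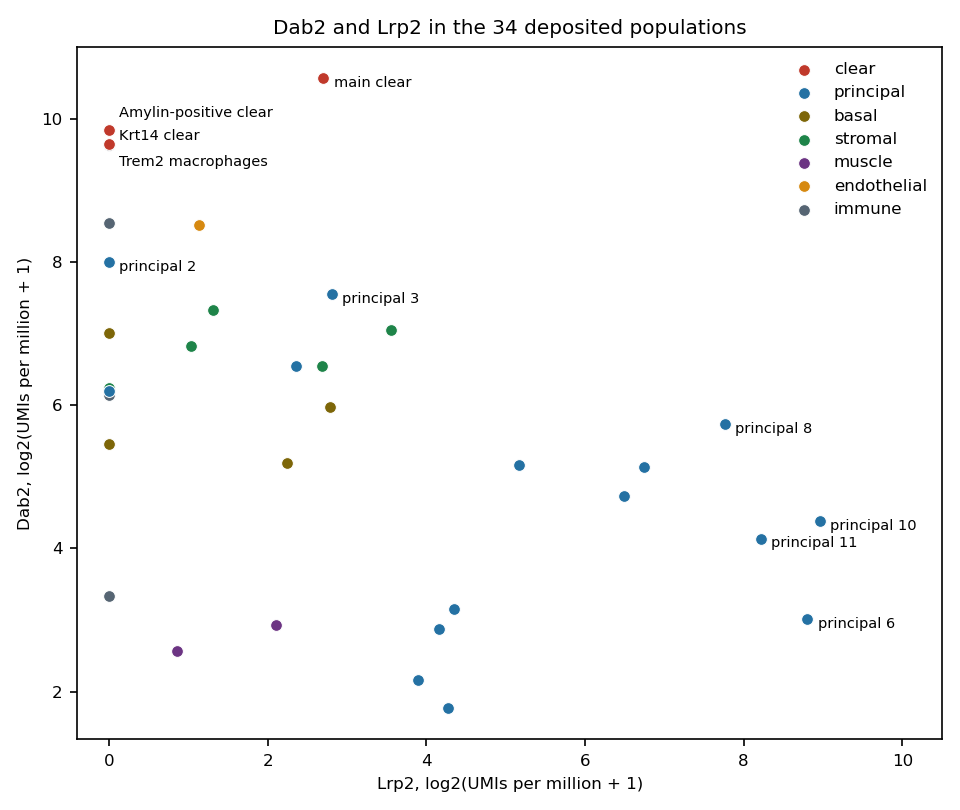
Level of Dab2 against Lrp2 in the 34 deposited populations, each as log2(UPM + 1), coloured by broad cell type; the Trem2 macrophage point lies under that of the Krt14 clear cells. Main clear cells have the highest Dab2 (1508 UPM), Amylin-positive and Krt14 clear cells and Trem2 macrophages lie close together at 917, 802 and 789 UPM, and the populations with the highest Lrp2 (principal 10 and 6, at 498 and 446 UPM) have little Dab2.

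The other members also varied by region in principal cells, and 6 of the 7 members with 20 UMIs there differed at least 2 times between the highest and lowest library, beside 61.8% of 9854 genes. Stx7 stood at 101, 60.6, 48.9 and 146 UPM from caput to vas, Dmxl1 at 47.0, 84.6, 39.7 and 29.9 UPM, and Cdc42se2 at 74.8, 67.0, 21.8 and 42.9 UPM. Arf3 was the exception, at 97.5, 121, 83.9 and 85.4 UPM. In every region each of Stx7, Arf3, Dmxl1 and Cdc42se2 was higher in clear than in principal cells, the smallest gap being that of Stx7 in the vas (194 against 146 UPM), where the intervals met.

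In principal cells the regional pattern of Ap1s3 mirrored that of Ap1s2. The AP-1 coat carries 1 small sigma subunit of the 3 encoded by Ap1s1, Ap1s2 and Ap1s3. Ap1s3 stood at 22.0 UPM in caput, 87.4 in corpus, 133 in cauda and 198 in vas principal cells, a ratio of vas to caput of 8.96 (6.48 to 12.7). Ap1s2 stood at 1890 UPM in caput and 439 in corpus, and at 1 UMI in cauda and 3 UMIs in vas principal cells. The 2 genes thus ran in opposite directions along the duct in principal cells, and both promoter windows are printed above. Principal cells were not alone in this. In basal cells Ap1s3 was 2.64 times as high in cauda as in caput (1.69 to 4.17). Ap1s2 was there 10.3 times as high in caput as in vas (4.17 to 33.1). In stromal cells Ap1s2 was 7.13 times as high in corpus as in vas (5.47 to 9.41).

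As a share of the UMIs of the 3 sigma genes, Ap1s3 made up 1.14% in caput principal cells (0.808 to 1.56), 16.3% in corpus, 98.7% in cauda (96.3 to 99.7) and 78.7% in vas. Counts are of transcript ends, so a longer transcript does not give more UMIs. Within the corpus the share divided by population, at 67.3% in principal 6 and 32.5% in principal 7, with the caput and caput-to-corpus populations principal 1 to 5 at 8.70% or less.

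In clear cells Ap1s3 made up most of the sigma gene UMIs in every region, a share of transcripts and not of protein. It made up 83.4% of their sigma UMIs (80.2 to 86.3), from 69.1% in caput and 76.6% in corpus to 92.1% in cauda and 80.0% in vas. Ap1s2 made up 15.5% of sigma UMIs in caput clear cells (17 UMIs) and had 0 UMIs in cauda clear cells, which allows up to 5.18 UPM. The Ap1s2 level in caput principal cells was 1890 UPM against 63.9 UPM in caput clear cells, and the part of free RNA in those 17 UMIs was not tested.

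**Figure D4:**
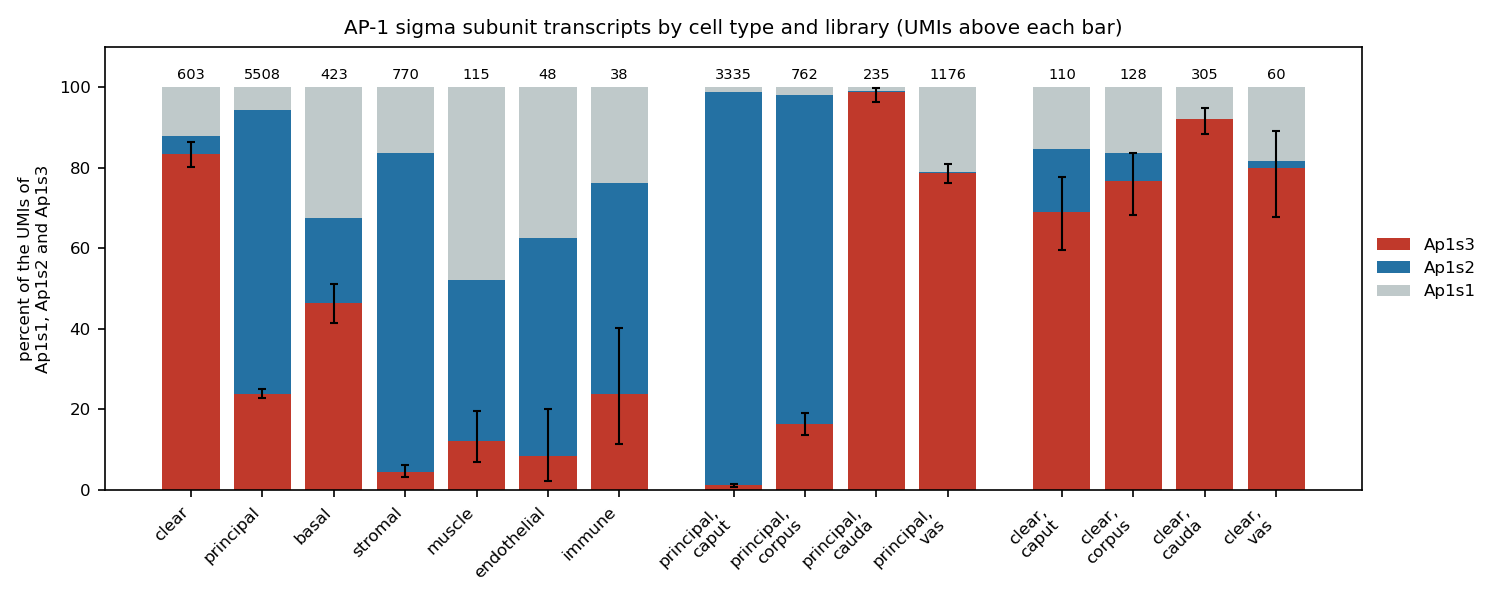
Share (percent) of the UMIs of Ap1s1, Ap1s2 and Ap1s3 taken by each, in the 7 broad types and in principal and clear cells of the 4 libraries, with the UMIs above each bar and Clopper-Pearson 95% intervals for Ap1s3. Ap1s3 takes 69.1% to 92.1% in clear cells, and 1.14% in caput but 98.7% in cauda principal cells.

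Other members were compared with their relatives in the same way. Arf3 made up 24.0% of the UMIs of Arf1 to Arf6 in clear cells (22.2 to 26.0) against 2.46% to 8.59% in the other types, while Arf1, the most general of these GTPases, stood at 371 UPM in clear and 379 UPM in principal cells. Stx7 made up 85.8% of the UMIs of Stx7 and Stx12, a related endosomal SNARE, against 48.7% to 68.9% elsewhere. The other members did not stand apart in this measure. Dmxl1 made up 81.8% of Dmxl1 and Dmxl2 UMIs in clear cells against 74.1% to 88.4% elsewhere, since Dmxl2 was itself 3.99 times as high in clear as in muscle cells (2.31 to 7.26). Cdc42se2 made up 58.1% of Cdc42se1 and Cdc42se2 UMIs against 31.3% to 69.2%. Dab2 made up all 1979 UMIs of the Dab pair in clear cells, and its neuronal relative Dab1 led only in muscle cells, where Dab2 made up 16.0% of 50 UMIs. Lrp1, the related scavenger receptor, was stromal at 199 UPM and had 8 UMIs (5.47 UPM) in clear cells, so neither receptor of the Lrp1 and Lrp2 pair was well counted there.

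Between main and Amylin-positive clear cells, 0 of 6 members differed at least 2 times, beside 13.3% of 6766 genes. Dab2 was 1.65 times as high in main clear cells (1.45 to 1.87), Ap1s3 1.59 times (1.25 to 2.05) and Arf3 1.31 times (1.03 to 1.67), and Stx7 was 0.679 times as high (0.571 to 0.810). Amylin-positive cells came only from the caput and corpus, so this comparison also set regions against each other. Within the caput the Dab2 ratio was 1.22 (0.942 to 1.57) and within the corpus 1.16 (0.963 to 1.41). For Stx7 it was 0.856 (0.602 to 1.21) and 0.887 (0.684 to 1.15).

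Inside a region, then, the interval of the ratio included 1 for each of these 6 members in the caput and for all of them but Dmxl1 in the corpus. There Dmxl1 was 1.78 times as high in main clear cells (1.10 to 2.95), while in the caput its ratio was 0.856 (0.462 to 1.56). Iapp, which encodes amylin and for which the population is named here, stood at 44316 UPM in Amylin-positive and 479 UPM in main clear cells of the caput. In Krt14 clear cells Dmxl1 stood at 435 UPM on 19 UMIs, 2.14 times main clear cells (1.27 to 3.43), and the 6 caput cells of that population held no Dab2 UMI among 2447 UMIs, which allows up to 1226 UPM.

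**Figure D5:**
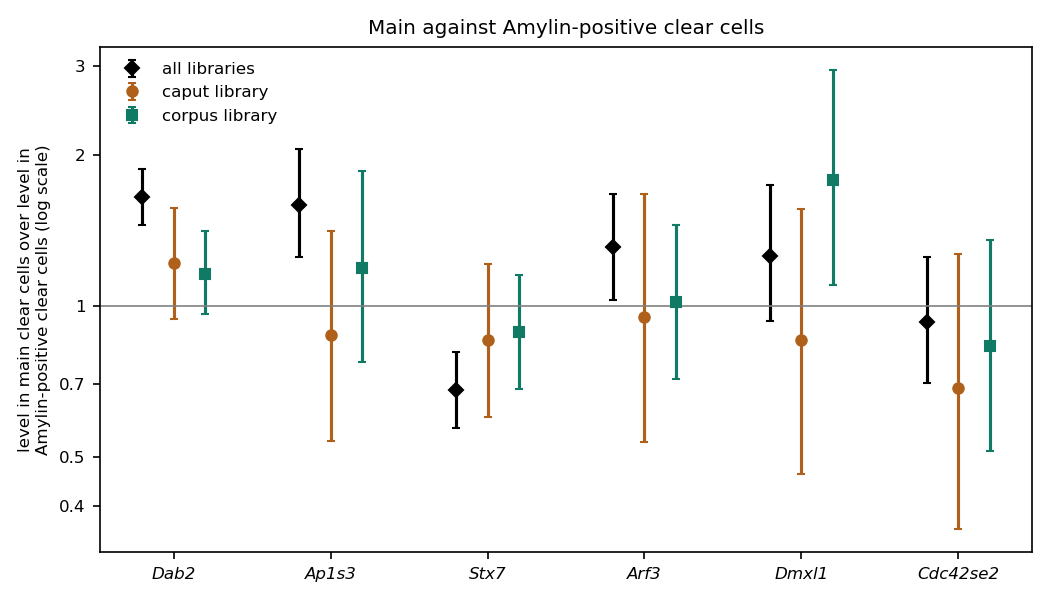
Ratio of main to Amylin-positive clear cells for 6 members (log axis), over all libraries and within the caput and corpus, with exact conditional 95% intervals for counting error as bars. The Dab2 ratio is 1.65 over all libraries, 1.22 in the caput and 1.16 in the corpus, and only the corpus Dmxl1 ratio of 1.78 has an interval above 1 within a region.

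The other genes of the pathway were taken from 11 lists with 160 genes, of which 133 had 20 UMIs in clear cells. At 2 times every other type, 15 of these were called (11.3%), and without the members 9 of 127 (7.09%), beside 603 of 7641 genes (7.89%). The median ratio of clear cells to the highest other type was 0.932 over the lists without the members and 0.854 over all genes, so the lists beyond the members lay near the background.

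The list of megalin and cubilin with their adaptors had 2 of 6 counted genes called, Dab2 and Clcn5. Clcn5, the endosomal chloride-proton exchanger, stood at 294 UPM in clear cells and at 3.44 UPM (2 UMIs) in immune cells, the next type, a ratio of 85.6 (23.6 to 709) that ranked 6 of 7641 genes. By region its level in clear cells was 353, 266, 332 and 134 UPM from caput to vas. Of the rest, Lrpap1, the chaperone of megalin, stood at 77.3 UPM in clear and 146 UPM in stromal cells. Gipc1, a partner of the megalin tail, stood at 105 UPM in clear and 132 UPM in principal cells. Fcgrt, the receptor that recycles albumin and antibodies, stood at 59.5 UPM in clear and 182 UPM in endothelial cells.

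The LDL receptor family list had 1 of 7 called, the sorting receptor Lrp10, at 245 UPM and 2.50 times endothelial cells (1.96 to 3.21), and Sorl1 followed at 1.46 times. The clathrin and AP-2 list had 3 of 23. The AP-2 subunit Ap2a2 stood at 101 UPM, 4.04 times principal cells (3.27 to 4.98), Ap2b1 at 75.3 UPM (2.59 times) and the uncoating factor Gak at 54.0 UPM (2.04 times), with Ap2a1 at 1.84 times and the clathrin heavy chain Cltc at 0.827 times. The AP-1, AP-3 and GGA list had 2 of 17, Ap1s3 and Ap3s2 (2.26 times), with Ap3b1 at 1.78 times and Gga1 close behind.

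Of the lists of fusion and sorting, endosomal SNAREs had 1 of 16 called, Stx7, with Vamp8 at 429 UPM and Stx16 at 90.3 UPM, each 1.51 times the next type. Tethers and ESCRT-0 had 1 of 11, Tgfbrap1, a tether of early endosomes (2.16 times on 29 UMIs), and retromer and sorting nexins had 0 of 11, with Snx1 at 1.60 times. Arf GTPases and their regulators had 1 of 19, Arf3, with the exchange factor Arfgef2 at 1.65 times and Arfgap3 at 1.53 times. Cdc42 and its effectors had 2 of 13, Cdc42se2 and the membrane-bending protein Fnbp1l (204 UPM, 2.27 times), with Cdc42se1 at 1.66 times. V-ATPase assembly had 2 of 3, Dmxl1 and Dmxl2, with Rogdi at 0.918 times. Caveolae and EHD proteins had 0 of 7, and the caveolar coat gene Cav1 stood at 44.5 UPM in clear against 1456 UPM in muscle cells.

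Patterns over the 34 populations were compared by Pearson correlation of log2(UPM + 1) among 11083 genes with at least 100 UMIs, as a description over populations that share libraries and depth. The genes most like Dab2 were Exoc3l4 (0.80), Hexa, a lysosomal hexosaminidase (0.77), and Baiap2 (0.75). Those most like Lrp2 were Ly6f (0.89), Alppl2 (0.89) and Ces1e (0.87), all highest in principal cells. Those most like Ap1s3 were Gata3 (0.88), Mlph (0.88) and Crb3 (0.87), and those most like Stx7 were Pde6d (0.80), Col4a3bp (0.79) and Fut8 (0.79).

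For Arf3 the most alike were Smarca4 (0.90), Ube2z (0.89) and Napa, a SNARE disassembly factor (0.88). For Dmxl1 they were Ubr4 (0.91), the AP-2 subunit Ap2a2 (0.89) and Fam21, of the endosomal WASH complex (0.88), and for Cdc42se2 they were Cyth1 (0.82), Prkcd (0.82) and Dazap2 (0.78). Of these 21 genes, 18 were highest in clear cells, beside 38.7% of the 7641 genes with 20 UMIs in clear cells. The 18 were picked for their likeness to members that were themselves highest there, so nothing is read from that count. Among the members themselves the correlation was highest for Arf3 and Dmxl1 (0.82) and for Ap1s3 and Arf3 (0.71), and lowest for Dab2 and Lrp2 (-0.48).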

How the data were processed

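Single-cell RNA-seq libraries were made from 4 regions, 1 per region. The deposited values are UMI counts of 16892 genes in 8880 cells. The authors aligned reads to mm10 (HISAT2 2.0.4 in the submitters' processing notes), counted UMIs on RefSeq genes with ESAT, leaving out reads with several matches, and kept cells by total UMIs (350 to 14999 in the table). They then removed ambient RNA with a modified SoupX, which took 2.80% to 4.48% of the UMIs per library. The deposited table of cells gives the count of UMIs before that step, the library and the authors' population names. The divisions were used as deposited and grouped into 7 broad types, and several names were put into other words here. The population called Amylin-positive here is deposited as Narrow, whereas the study held that Amylin-positive clear cells are unlikely to be narrow cells. These populations were clustered on the same counts. 0 columns of other samples were present.

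Levels are summed UMIs per 1000000 UMIs, with exact 95% intervals (Poisson for levels, conditional binomial for ratios, Clopper-Pearson for shares) computed with Python 3.11.15, numpy 2.4.6, scipy 1.17.1 and pandas 2.3.3. The coverage of the level and ratio intervals was tested on simulated independent Poisson counts, which hold no differences between cells or animals. The coverage of the share intervals was not tested. Shares of thinned cells are expected over all draws of 1000 UMIs. A gene was called at 20 UMIs in the higher group and the fold named. Doublets were simulated (scikit-learn 1.9.0) at 0.8% per 1000 cells. This called 178 cells (2%), 8 of them clear, which were kept and left out only in an alternative.

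The members and lists were chosen with earlier results of these data known. Genes given by name are the members, their relatives, from each list the genes called at 2 times and up to 2 of the next highest ratio, the 3 genes of the most similar pattern for each member, and markers. Amn, Lrpap1, Fcgrt, Cltc and Cav1 were named after their values were seen, as partners or coat genes of the members. Positions are those of GENCODE vM21 on GRCm38, the assembly of mm10. No annotated gene lay on the same strand within 1000 bases downstream of a member.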

Additional observations from a re-analysis of the deposited data

Results flagged for a closer look

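For Dab2 and Arf3 the difference between regions had opposite directions in different cell types, and the difference between the cell types was not tested, since each region is 1 library. Dab2 in cauda against caput stood at a ratio of 2.03 in clear cells (1.77 to 2.33), 0.213 in principal cells (0.160 to 0.280) and 0.618 in basal cells (0.393 to 0.952). In stromal, endothelial and immune cells the ratios were 1.31, 1.24 and 1.33, each with an interval that included 1. Arf3 stood at a ratio of 2.10 in clear cells (1.56 to 2.86) and 0.698 in basal cells (0.506 to 0.953), with 0.861 in principal cells (0.685 to 1.08).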

How the results depend on the processing

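The number of members at least 4 times every other type in clear cells was 0, and it was 1 among cells with at least 1000 UMIs (Dmxl1), 3 without the vas library (Dab2, Ap1s3 and Stx7) and 6 at a fold of 2. The number that differed between libraries of clear cells was 4, and 0 at a fold of 4. The number that differed between main and Amylin-positive clear cells was 0, and 2 at a fold of 1.5. The number marked by 1 library in principal cells was 1, and 0 at a fold of 8. The lists had 15 genes called, 25 at a fold of 1.5 and 2 at a fold of 4. No ratio of clear cells to the other types changed direction, while the Dmxl1 ratio of main to Amylin-positive clear cells, 1.26, was 0.678 as a mean over cells. Over 10 alternatives the ratio of clear cells to the highest other type ranged from 2.64 to 5.78 for Dab2, 1.81 to 4.30 for Ap1s3, 2.68 to 4.13 for Stx7, 2.65 to 3.81 for Arf3, 3.23 to 4.08 for Dmxl1, 1.95 to 2.71 for Cdc42se2 and 0.0204 to 0.0747 for Lrp2. Leaving out called doublets, or the 86 cells whose barcode occurred in 2 libraries (1 of them clear, an alternative chosen after seeing the data), moved none of these numbers of genes by more than 1.5 times. No paired analysis was possible because no result comes from a test, with 1 library per region. The depth of Krt14 clear cells and the 38 clear cells of the vas limits what can be read from either.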
